A study of Rattus norvegicus with 2 samples.

Results

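Glycolysis and hypoxia genes were followed through the cells of the neonatal rat heart, with and without lipopolysaccharide (LPS). The 10 genes were taken by symbol from the gene list deposited with the counts, where they are 10 of 25399 entries. They are the glucose transporter Slc2a1, the hexokinases Hk1 and Hk2, the phosphofructokinase genes Pfkp and Pfkfb3, pyruvate kinase Pkm, lactate dehydrogenase Ldha, the lactate exporter Slc16a3, the hypoxia-inducible factor subunit Hif1a and the pyruvate dehydrogenase kinase Pdk4. Hearts came from Sprague-Dawley rats aged 1 to 3 days, male and female pooled, and a Percoll gradient was used to enrich intrinsic cardiac adrenergic (ICA) cells, small cells of the heart that make catecholamines. The cells were kept for 2 h with saline in the control group or with 1 µg/mL LPS, the cell wall component that starts the innate response to Gram-negative bacteria, and each group gave 1 library made with the 10X Genomics 3′ v2 kit. The study asked what ICA cells contribute to the cardiac response to LPS. Treatment was given to the isolated cells, outside the animal.

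Glycolysis turns glucose into pyruvate in the cytosol. GLUT1, the product of Slc2a1, admits glucose, hexokinase traps it as glucose 6-phosphate, phosphofructokinase commits it to the pathway and is pushed forward by fructose 2,6-bisphosphate, which the enzyme from Pfkfb3 makes, and pyruvate kinase and lactate dehydrogenase end the path in pyruvate and lactate, which MCT4, the product of Slc16a3, carries out of the cell. HIF-1α, the product of Hif1a, is marked for destruction by prolyl hydroxylases while oxygen is present. It switches on many genes of glycolysis when it lasts. In macrophages stimulated with LPS, a turn towards glycolysis and HIF-1α is a textbook response, and the heart of a newborn is moving from glycolysis towards fatty acid oxidation.

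Depth was counted in unique molecular identifiers (UMIs, each standing for 1 captured RNA molecule). There were 11531 control cells (152624585 UMIs, median per cell 12479) and 12689 LPS cells (127580475 UMIs, median per cell 9432), and 194 barcodes occurred in both libraries. Levels are given in CPM, the summed UMIs of a gene in a cluster per 1000000 UMIs of that cluster, and compare a gene between clusters and libraries, not different genes. Clusters and cell types are those of the authors' cell table, in which clusters 0, 1 and 7 are fibroblasts, cluster 3 is ICA and Cardiomyocyte, clusters 4 and 5 are endothelial, cluster 6 holds macrophages, and clusters 2, 8, 9 and 10 have no name. With 1 library per group there are no replicates and no test, the 95% intervals in brackets cover counting error only, and treatment and handling of the libraries cannot be told apart. Although both samples are labelled as ICA cells, 6600 control and 7030 LPS cells belonged to the fibroblast cluster 0. In cluster 3, UMIs of Dbh, whose enzyme makes noradrenaline, were seen in 18.7% of control cells (16.1 to 21.5) and in 13.0% of LPS cells (10.9 to 15.4). These shares were taken at full depth, with medians in cluster 3 of 7526 UMIs a cell in control and 5269 with LPS. Dbh held 180 of the 7078654 UMIs of the cluster in control and 136 of 5480790 with LPS. The shares therefore do not show that fewer cells expressed Dbh with LPS. Th, which codes for the first enzyme of catecholamine synthesis, had a UMI in 0 of 836 control and 0 of 929 LPS cells there. The upper 95% bounds of these shares are 0.440% and 0.396%, and they say nothing of cells that express Th below detection. The summed cardiomyocyte markers stood at 12009.5 and 12550.7 CPM there. Of 9 macrophage markers, all 9 had UMIs in cluster 6, summing to 1992 CPM in control and 1575 CPM in LPS cells, and no other cluster was above 2.22% of that level.

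The members held 156576 UMIs in control and 149058 in LPS cells. With at least 50 UMIs over both libraries asked of a gene in a cluster, 61 of the 100 pairs of a member and one of the 10 clusters 0 to 9 could be read. The LPS level was at least 1.5-fold higher in 16 of these pairs and at least 1.5-fold lower in 13, that is 26.2% and 21.3%, while over all genes 6.98% of 74085 such pairs were higher and 14.4% were lower. A single gene made up most of each count, Hif1a with 9 of the 16 higher pairs and Pkm with 9 of the 13 lower pairs.

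The macrophages (cluster 6) had 3 members higher, Slc2a1, Slc16a3 and Hif1a, and 2 lower, Hk2 and Pkm, of 7 with enough UMIs, where 8.8% of all genes were higher and 30.8% lower. For the clusters that follow, the share of all genes past the line in the same direction stands in brackets. The counts rest on few members per cluster and were not tested against these shares. Of 5 members with enough UMIs, the endothelial cluster 5 had 3 higher, Slc2a1, Hk2 and Hif1a (9.62%), and Pkm lower (13.1%). Of 8 members, the endothelial cluster 4 had Slc16a3 and Hif1a higher (5.64%) and Pkm lower (13.2%). Of 9 members, the fibroblast cluster 0 had Hif1a higher (6.92%) and both Pfkfb3 and Pkm lower (19.7%). Of 8 members, the fibroblast cluster 1 had Hif1a higher (6.47%) and both Pfkfb3 and Pkm lower (13.3%). The third fibroblast cluster, 7, had Hif1a higher (10.5%) and Pkm lower (11.7%), of 5 members. Cluster 2 had Hk2 and Hif1a higher (5.81%) and Pfkfb3 and Pkm lower (13.6%), of 6 members. Cluster 8 had Hk2 and Hif1a higher (6.96%) and Pkm lower (7.04%), of 4 members. Of 7 members in cluster 3 none was higher (4.38%) and Pkm was lower (5.4%). In cluster 9 only 2 members, Hif1a and Ldha, had enough UMIs. Hif1a was higher there (8.18%) and neither was lower (8.9%). Pkm held 31 and 6 UMIs in cluster 9, too few to be counted, with a ratio of 0.311 (0.106 to 0.758). Over all clustered cells Hif1a was higher and Pkm lower, of 9 members, against 6.57% and 18.5% of all genes.

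Across all genes the median log2 ratio of LPS to control was -0.31 in cluster 6, -0.13 in cluster 0 and -0.12 in cluster 2, and between -0.09 and 0 in the other clusters. Divided by that median, the ratios gave 19 higher and 12 lower pairs, and 4 of the 61 changed direction, namely Ldha in clusters 2 and 6, Pfkfb3 in cluster 6 and Slc2a1 in cluster 2.

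**Figure D1:**
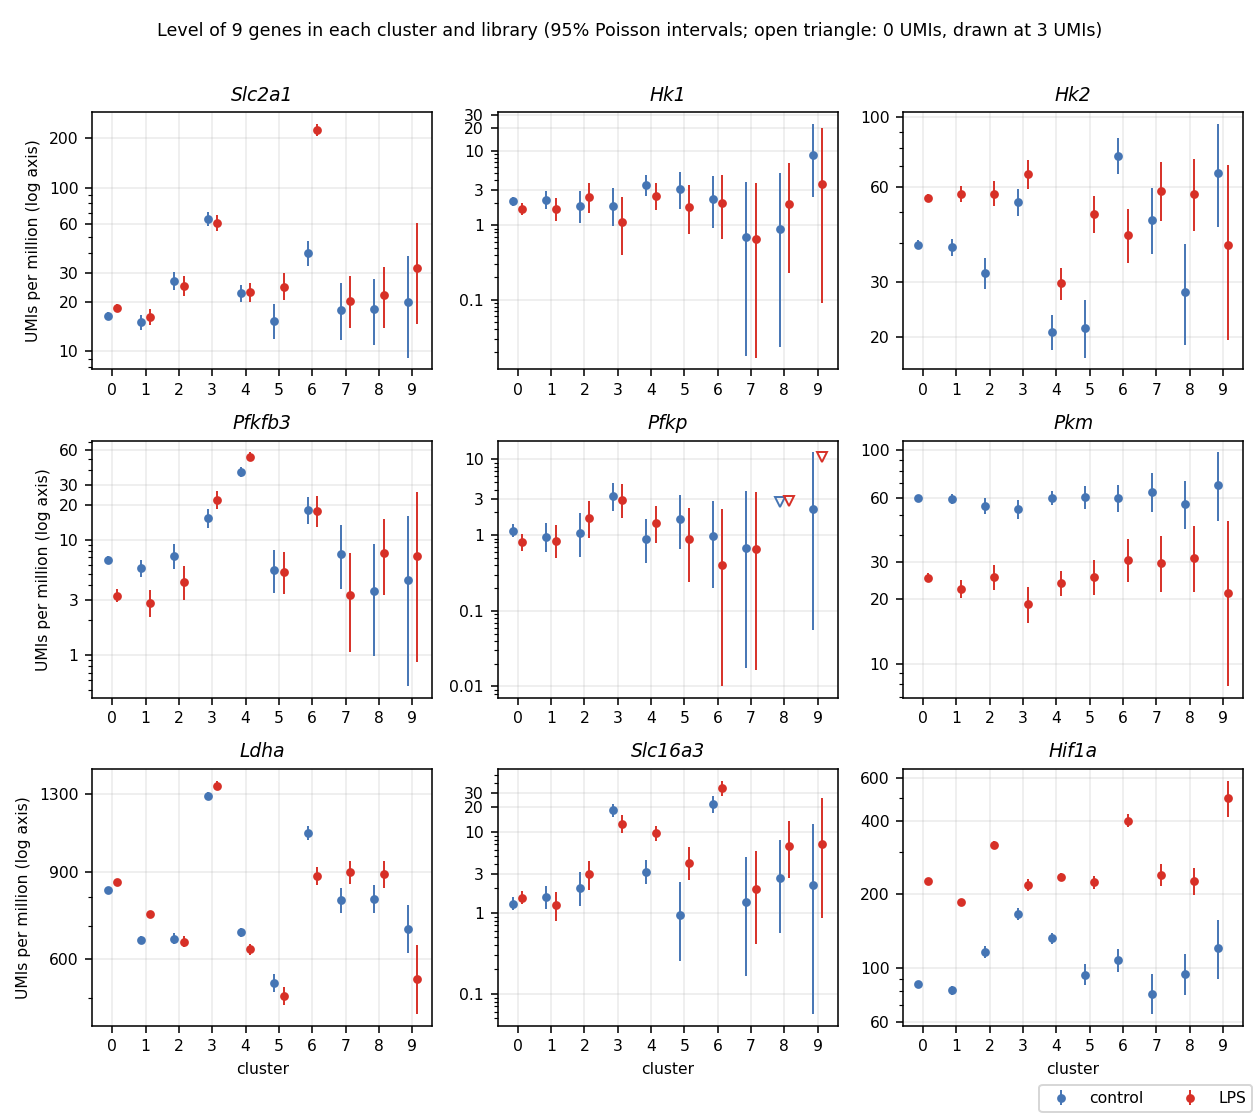
Level of 9 of the genes (vertical axis, CPM on a log axis) in clusters 0 to 9 (horizontal axis) in control (blue) and LPS (red) cells, with 95% Poisson intervals for counting error; open triangles mark 0 UMIs and are drawn at the level of 3 UMIs. Slc2a1 in macrophages (cluster 6) goes from 39.8 to 224 CPM, Hif1a is higher with LPS in each cluster, and Pkm lies in a narrow band that is lower with LPS in each cluster.

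In macrophages the glucose transporter and the oxygen-responsive subunit were high with LPS while a hexokinase was low. Slc2a1 (ENSRNOG00000007284) was counted at 39.8 CPM (33.1 to 47.5) in macrophages of the control library and at 224 CPM (206 to 244) in those of the LPS library. The ratio was 5.64 (4.63 to 6.91). Of 6385 genes with enough UMIs in macrophages, 1.28% had a higher ratio. In clusters 0, 1, 2, 3 and 4 Slc2a1 stayed close to its control level, with ratios between 0.937 and 1.11. Among these only cluster 0, at 1.11 (1.03 to 1.20), had an interval that left out 1. Cluster 7 had a ratio of 1.15 (0.658 to 2.01) from 26 and 31 UMIs, too wide an interval to read. In the endothelial cluster 5 the ratio was 1.62 (1.19 to 2.24), and Slc2a1 went from 15.3 to 24.8 CPM. Clusters 8 and 9 held fewer than 50 UMIs of it. In control cells the highest Slc2a1 level was in cluster 3, at 64.3 CPM, followed by macrophages, and these were the only neighbours in the order whose intervals stood apart from each other and from the next cluster. With LPS the macrophages led at 224 CPM and cluster 3 followed at 60.8 CPM.

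The macrophages were few but weighed on the Slc2a1 level of the whole preparation. They were 2.44% of control cells and 2.29% of LPS cells, and held 4.05% (3.38 to 4.81) of the Slc2a1 UMIs in the control library and 17.5% (16.2 to 18.9) in the LPS library. Over all clustered cells the ratio was 1.24 (1.18 to 1.31), and without the macrophages, a comparison added after the data were seen, it was 1.07 (1.01 to 1.13). The share of macrophages with a Slc2a1 UMI was 14.2% (10.4 to 18.9) in control and 46.6% (40.7 to 52.5) with LPS when 3000 UMIs were drawn from every cell (thinning), and 33.8% and 74.2% without thinning, the medians being 8846 and 6900 UMIs a cell. In the fibroblasts of cluster 0 the thinned shares were 4.64% and 4.98%, with medians of 12968 and 9821.5 UMIs a cell. In macrophages the summed endothelial markers stood at 7.8% of their level in cluster 4 in control and at 11.4% with LPS, and their part in the Slc2a1 difference was not tested. Summed fibroblast markers in macrophages stood at 22.5% of their highest level, that of cluster 9, in control and at 20.5% with LPS. Cardiomyocyte markers stood at 1.97% and 1.72% of their level in cluster 3. How much of this was free RNA carried by droplets was not tested. No class of cells is known to lack the members, which are genes of common metabolism, so their own carried RNA was not measured.

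Hk2 and Hk1 make the hexokinases of the first step. Hk2 (ENSRNOG00000006116), the inducible form of muscle and fat, was higher with LPS in 8 of the 9 clusters with enough UMIs and lower in macrophages, and in cluster 7 the interval of the ratio included 1. In macrophages it was at 75.5 CPM in control and 42.2 CPM in LPS cells, a ratio of 0.56 (0.44 to 0.708). That was not an extreme value for the cluster, since 17.8% of all genes in macrophages had a lower ratio, and after division by the median ratio it was 0.693. In the endothelial cluster 5 Hk2 went from 21.4 to 49.2 CPM, a ratio of 2.3 (1.79 to 2.97), in cluster 8 from 27.9 to 57.1 CPM, 2.05 (1.31 to 3.27), and in cluster 2, where pericyte and smooth muscle markers were highest, from 31.9 to 57.3 CPM, 1.79 (1.55 to 2.08). The fibroblasts of clusters 0 and 1 showed ratios of 1.40 (1.34 to 1.47) and 1.48 (1.36 to 1.62), just under the 1.5-fold line. Divided by the median ratio of all genes, Hk2 passed it in clusters 0, 1 and 4, at 1.54, 1.55 and 1.52. With LPS the Hk2 levels of the clusters lay closer together, 2.22-fold from lowest to highest against 3.63-fold in control cells, and macrophages, highest in control with an interval that overlapped that of cluster 9, had the third lowest level. The thinned share of macrophages with an Hk2 UMI was 19.9% (15.4 to 25.1) in control and 8.28% (5.37 to 12.1) with LPS, and 47.7% and 24.4% unthinned.

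Hk1, the form that most tissues keep at a steady level, was scarce. It had 338 control and 221 LPS UMIs, 2.21 and 1.73 CPM, a ratio of 0.782 (0.657 to 0.930). The 3 clusters with enough UMIs, 0, 1 and 4, had ratios of 0.786, 0.743 and 0.703, and none was past 1.5-fold. Hk2 thus took 94.6% of the UMIs of the pair in control and 96.9% in LPS cells. Its share was lowest in the control endothelial cells, at 85.6% (80.8 to 89.5) in cluster 4 and 87.5% (79.6 to 93.2) in cluster 5, and was 92.3% (88.8 to 95) and 96.6% (93.3 to 98.5) with LPS. In cluster 5 these intervals only just stood apart, with 13 control and 8 LPS UMIs of Hk1. The share was also higher with LPS, with intervals apart, in the fibroblast clusters 0 and 1. The upper control bound and lower LPS bound were 95.6% and 96.6% in cluster 0, and 95.9% and 96.1% in cluster 1. In the other clusters the intervals of the 2 libraries overlapped.

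Pfkfb3 (ENSRNOG00000018911) codes for the kinase that makes the activator of phosphofructokinase, and its direction differed between clusters. Fibroblasts had less of it with LPS. In cluster 0 it went from 6.67 to 3.25 CPM, a ratio of 0.488 (0.418 to 0.567), and in cluster 1 from 5.62 to 2.83 CPM, 0.504 (0.363 to 0.691). Cluster 2 was alike in direction, with 7.15 and 4.29 CPM and a ratio of 0.599 (0.388 to 0.911). The endothelial cluster 4 had the highest level in both libraries, 38.7 CPM in control and 52.4 CPM with LPS, a ratio of 1.35 (1.19 to 1.54), and cluster 3 went from 15.3 to 22.1 CPM, 1.45 (1.11 to 1.89). Neither reached 1.5-fold, and in cluster 3 the ratio was 1.22 once cells with over 20% mitochondrial UMIs or under 500 genes were left out. In cluster 4 Pfkfb3 was 5.43-fold (4.84 to 6.08) above the level of all other clustered cells in control and 11.5-fold (10.1 to 13.0) above it with LPS. The second endothelial cluster, 5, was not alike, with 5.41 and 5.27 CPM from 23 and 24 UMIs.

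Macrophages had 18.0 and 17.7 CPM of Pfkfb3, a ratio of 0.984 (0.648 to 1.49), although the thinned share of cells with a UMI was 3.20% in control and 7.24% with LPS, so that no order was read from the shares. Pfkp, the platelet form of phosphofructokinase itself, had 182 control and 127 LPS UMIs over all clusters, 1.19 and 0.996 CPM, with a ratio of 0.835 (0.660 to 1.05). Only cluster 0 gave it 50 UMIs, with a ratio of 0.708 (0.506 to 0.982). Among the 3 phosphofructokinase genes Pfkl, Pfkm and Pfkp it took 2.26% of the UMIs in control and 2.57% in LPS cells.

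**Figure D2:**
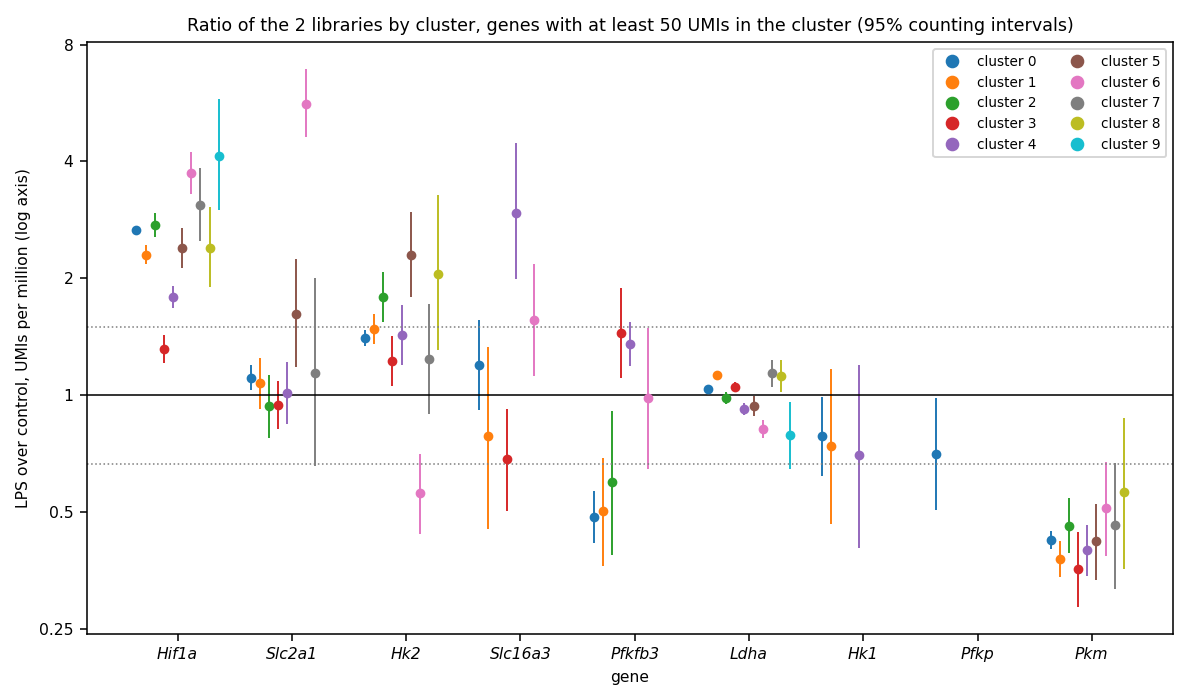
Ratio of the LPS level to the control level (vertical axis, log axis) for 9 genes (horizontal axis), with 1 point per cluster that had at least 50 UMIs of the gene and 95% counting intervals; the solid line marks 1 and the dotted lines 1.5-fold. All 10 Hif1a points lie above 1 and all 9 Pkm points below it, while Slc2a1, Hk2, Slc16a3, Pfkfb3 and Ldha have clusters on both sides.

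Pkm (ENSRNOG00000011329), whose enzyme makes pyruvate and ATP in the last step of glycolysis, was lower with LPS in 9 of the 9 clusters with enough UMIs, each by at least 1.5-fold. Of 3777 genes with at least 50 UMIs in each of clusters 0 to 8, 28 genes, or 0.741%, did the same, Pkm among them. These clusters are those where both Pkm and Hif1a had at least 50 UMIs. The criterion is the pattern of Pkm itself, so this share is a description and no test. Over all clustered cells Pkm went from 9008 UMIs and 59.0 CPM in control to 3150 UMIs and 24.7 CPM with LPS, a ratio of 0.418 (0.402 to 0.436). The lowest ratio was in cluster 3, at 53.0 and 19.0 CPM and 0.358 (0.285 to 0.446), and the highest in cluster 8, at 55.8 and 31.4 CPM and 0.564 (0.358 to 0.873). Macrophages went from 59.7 to 30.6 CPM, 0.512 (0.387 to 0.672), and 13.3% of all genes in macrophages had a lower ratio, against 0.65% in cluster 3 and 1.69% in cluster 4.

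In control cells the Pkm level was similar across the clusters. It lay between 53.0 and 63.7 CPM in clusters 0 to 8, a 1.20-fold spread, when the median spread of the 3777 genes over the same clusters was 2.13-fold and 0.212% of them were as even or more so. With LPS the values spread 1.66-fold, from 19.0 CPM (15.5 to 23.0) in cluster 3 to 31.4 CPM (21.6 to 44.1) in cluster 8. The intervals of these clusters overlapped, and whether the spread was wider with LPS was not tested. Cluster 3 was at 0.76-fold (0.619 to 0.925) of the other clustered cells with LPS. In control it was at 0.893-fold (0.803 to 0.990), with an overlapping interval. All 9 neighbours in the order of the 10 clusters had overlapping intervals in both libraries, but the intervals of cluster 3 and of macrophages (24.1 to 38.3) stood apart with LPS. Both a spread of at most 1.5-fold in control and a ratio past 1.5-fold downwards in each of the 9 clusters were shown by 3 genes, or 0.0794%, namely Pkm, Ppia and Best1, picked out after their values were seen. Pkm, Ldha, Ppia and the enzyme genes Gapdh and Tpi1 have processed copies in rodent genomes, and how reads shared with such copies were counted is not given in the sources used here, so their levels are uncertain. The thinned share of cells with a Pkm UMI ran from 14.0% to 19.7% over the control clusters and from 5.56% to 10% over the LPS clusters.

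Ldha (ENSRNOG00000013009), which makes the subunit that favours turning pyruvate into lactate, was the most deeply counted member, with 121821 control and 104514 LPS UMIs. Its level barely differed between the libraries, 798 and 819 CPM over all clustered cells, and the ratios of the 10 clusters lay between 0.792 and 1.14. The large counts made the counting intervals narrow, but these leave out variation between cells and libraries. Small differences between clusters were not tested. The ratio was 1.13 (1.10 to 1.15) in the fibroblast cluster 1, 1.14 (1.05 to 1.23) in cluster 7 and 1.05 (1.02 to 1.08) in cluster 3. It was 0.924 (0.893 to 0.955) in the endothelial cluster 4 and 0.818 (0.775 to 0.864) in macrophages, where Ldha went from 1082 to 886 CPM. None of these passed 1.5-fold, and the macrophage ratio stood near the median of all genes there, since 48.8% of them had a higher one. Divided by the median ratio of all genes, Ldha was at 0.981 (0.949 to 1.02) in cluster 4 and 1.01 (0.959 to 1.07) in macrophages. Both intervals then included 1, while those of clusters 1, 3 and 7 stayed above it. Cluster 3 led in both libraries at 1285 and 1350 CPM, and cluster 5 was lowest at 537 and 505 CPM.

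The mix of Ldha and Ldhb, the subunit of the heart isoenzyme that favours the oxidation of lactate, differed widely between clusters. Ldha took 97.1% (96.5 to 97.6) of the UMIs of both genes in control macrophages and 96.6% (95.8 to 97.3) with LPS. In the fibroblasts of cluster 0 it took 93.2% (93.0 to 93.3) and 94.9% (94.7 to 95), and the intervals stood apart. They also stood apart in cluster 1, with 93.0% (92.6 to 93.4) and 94.4% (94.0 to 94.7), and in cluster 8, with 91.4% (89.5 to 93.1) and 95.2% (93.7 to 96.5). In cluster 9 the share was lower with LPS, 83.4% (79.2 to 87.0) against 75.4% (68.8 to 81.1), with overlapping intervals. The lowest shares were those of cluster 3, with 73.2% (72.4 to 73.9) and 74.5% (73.6 to 75.3), and of the endothelial cluster 5, with overlapping intervals, at 73.7% (72.1 to 75.2) and 74.3% (72.7 to 75.8). The other endothelial cluster, 4, was at 84.0% (83.2 to 84.7) and 84.9% (84.0 to 85.7). Cluster 3 thus combined the highest Ldha level with a high Ldhb level of 471 and 463 CPM, against 60.8 and 46.4 CPM in cluster 0.

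**Figure D3:**
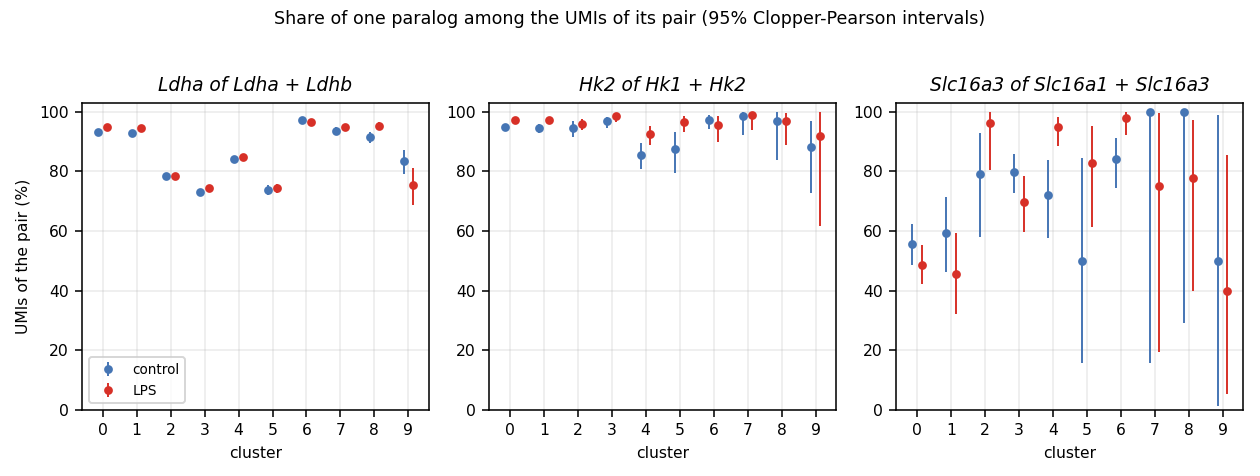
Share of 1 gene among the UMIs of its pair (vertical axis, percent) in clusters 0 to 9 (horizontal axis) in control (blue) and LPS (red) cells, with 95% Clopper-Pearson intervals, for Ldha against Ldhb, Hk2 against Hk1 and Slc16a3 against Slc16a1. The Ldha share goes from 97.1% in macrophages to 73.2% in cluster 3 in control cells, and the Slc16a3 share in cluster 4 goes from 72% to 94.9%.

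Slc16a3 (ENSRNOG00000036677), the exporter that glycolytic cells use for lactate, was highest in macrophages and cluster 3. Macrophages had 22.2 CPM in control and 34.6 CPM with LPS, a ratio of 1.56 (1.12 to 2.18), just past the 1.5-fold line, and stood 9.46-fold (7.20 to 12.3) and 12.1-fold (9.41 to 15.3) above all other clustered cells. The ratio was highest in the endothelial cluster 4, with 3.24 and 9.55 CPM and 2.95 (1.99 to 4.47), and 1.40% of the genes there had a higher one. The other endothelial cluster, 5, held only 4 and 19 UMIs. In cluster 3 Slc16a3 was lower with LPS, at 18.4 and 12.6 CPM and 0.686 (0.504 to 0.925), short of 1.5-fold. Against Slc16a1, which codes for the transporter MCT1 that many cells use for uptake, Slc16a3 took 72% (57.5 to 83.8) of the UMIs of cluster 4 in control and 94.9% (88.5 to 98.3) with LPS. In macrophages the shares were 84.1% (74.4 to 91.3) and 97.7% (92.0 to 99.7), and in cluster 0 they were 55.5% (48.5 to 62.3) and 48.7% (42.2 to 55.3), where the intervals overlapped.

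Pdk4, whose kinase keeps pyruvate from becoming acetyl-CoA and which fasting and fatty acids induce in the heart, was nearly missing from the counts. Over all clusters it had 2 control and 3 LPS UMIs, none of them in macrophages, so no ratio is given. The 0 UMIs in control cells of cluster 3 still leave room for 0.424 CPM. Its paralogs were counted more often, with 13.2 and 11.4 CPM of Pdk1 over all cells.

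Hif1a (ENSRNOG00000008292) was higher with LPS in each of the 10 clusters and past 1.5-fold in 9 of them. Of 3777 genes with at least 50 UMIs in each of clusters 0 to 8, 66 genes, or 1.75%, were past 1.5-fold upwards in each of the 8 clusters other than 3, a criterion set after the Hif1a values were seen, and 61 of them, or 1.62%, were past it in cluster 3 too. Over all clustered cells Hif1a went from 94.6 to 231 CPM, a ratio of 2.44 (2.40 to 2.49). Cluster 9 had the highest ratio, 4.14 (3.00 to 5.78), from 120 to 497 CPM, but held only 66 and 58 cells, with medians of 14.0% and 12.6% of mitochondrial UMIs per cell. Macrophages followed with 108 and 402 CPM and 3.74 (3.30 to 4.24), and 1.96% of the genes in macrophages had a higher ratio. The fibroblasts of clusters 0, 1 and 7 had ratios of 2.66 (2.59 to 2.73), 2.3 (2.18 to 2.43) and 3.08 (2.49 to 3.84), cluster 2 had 2.74 (2.55 to 2.94), and the endothelial clusters 4 and 5 had 1.79 (1.67 to 1.91) and 2.40 (2.13 to 2.70).

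Cluster 3 stood apart in Hif1a. It had the highest control level of the 10 clusters, 166 CPM (157 to 176), and the lowest ratio, 1.32 (1.21 to 1.43), whose interval lay below that of each other cluster. With LPS its 219 CPM were 0.944-fold (0.890 to 1.00) of the level of all other clustered cells, against 1.82-fold (1.72 to 1.94) in control. Mitochondrial UMIs had medians of 17.9% and 17.3% per cell in this cluster, the highest of all clusters, and without cells over 20%, or with under 500 genes, the ratio was 1.42. The thinned share of cells with a Hif1a UMI was 36.4% (33.1 to 39.7) in control and 41.9% (38.7 to 45.2) with LPS in cluster 3, with overlapping intervals, and 66.6% and 59.8% unthinned, at medians of 7526 and 5269 UMIs per cell. In macrophages the thinned shares were 26.0% (21.0 to 31.5) and 65.9% (60.1 to 71.3), and unthinned 60.9% and 86.6%.

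**Figure D4:**
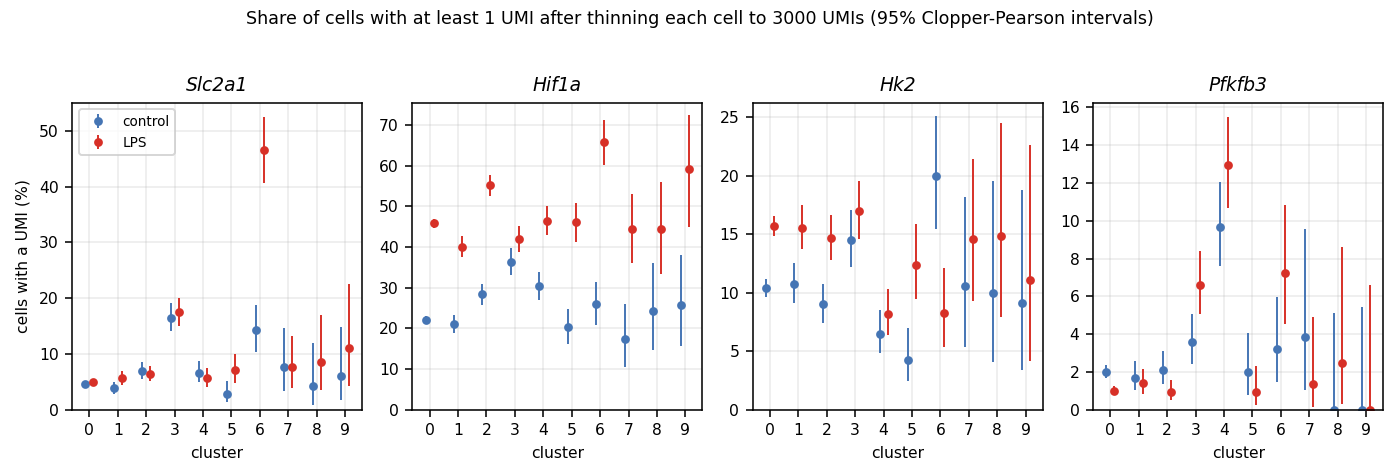
Share of cells with at least 1 UMI (vertical axis, percent) of Slc2a1, Hif1a, Hk2 and Pfkfb3 in clusters 0 to 9 (horizontal axis) after each cell was thinned to 3000 UMIs, in control (blue) and LPS (red) cells, with 95% Clopper-Pearson intervals. In macrophages (cluster 6) Slc2a1 goes from 14.2% to 46.6% and Hk2 from 19.9% to 8.28%, and Pfkfb3 stands out in the endothelial cluster 4.

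The ICA cells the study set out to enrich were looked for as the cells of cluster 3 with a Dbh UMI, 156 in control and 121 with LPS. The study instead named a smaller subcluster of cluster 3 that expressed Dbh as its ICA cells, so the cells taken here are not the same set. Slc2a1 was at 69.1 and 62.2 CPM in cells with a Dbh UMI and at 63.0 and 60.5 CPM in those without. The Hif1a ratio was 1.14 (0.914 to 1.41) with and 1.34 (1.22 to 1.46) without a Dbh UMI, and the Pkm ratio was 0.484 (0.267 to 0.830) with and 0.338 (0.263 to 0.430) without. For Hif1a and for Pkm the intervals with and without a Dbh UMI overlap, and cells without a Dbh UMI may still express the gene below what this depth shows.

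The DNA just upstream of 5 of the genes is shown because these are the 4 members with a cluster past 1.5-fold upwards and Ldha, a textbook HIF-1 target whose ratios stayed near 1. Each window is the 250 bases before the start of the gene in RefSeq on GRCr8, 5′ to 3′ on the gene's strand, and all 10 members were matched, while the build behind the counts is not given in the sources used here. Capitals mark matches on either strand to ACGTG or GCGTG, the core of the element that HIF-1 binds. The 6-base palindrome CACGTG counts for both strands. The windows are chr5:138002272-138002521 on the plus strand for Slc2a1, chr6:98359648-98359897 on the plus strand for Hif1a, chr1:106507842-106508091 on the plus strand for Ldha, chr4:116841276-116841525 on the minus strand for Hk2 and chr10:106712078-106712327 on the plus strand for Slc16a3.
Slc2a1: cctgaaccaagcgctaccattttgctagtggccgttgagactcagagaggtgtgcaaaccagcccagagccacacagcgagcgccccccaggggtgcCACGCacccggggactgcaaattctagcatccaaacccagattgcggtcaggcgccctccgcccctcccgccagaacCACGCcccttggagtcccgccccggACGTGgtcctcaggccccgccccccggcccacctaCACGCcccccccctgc
Hif1a: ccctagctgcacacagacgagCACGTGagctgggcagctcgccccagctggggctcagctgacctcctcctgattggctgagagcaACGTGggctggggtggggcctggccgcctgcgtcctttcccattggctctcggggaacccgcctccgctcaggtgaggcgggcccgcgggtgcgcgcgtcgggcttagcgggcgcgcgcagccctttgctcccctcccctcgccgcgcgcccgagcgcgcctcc
Ldha: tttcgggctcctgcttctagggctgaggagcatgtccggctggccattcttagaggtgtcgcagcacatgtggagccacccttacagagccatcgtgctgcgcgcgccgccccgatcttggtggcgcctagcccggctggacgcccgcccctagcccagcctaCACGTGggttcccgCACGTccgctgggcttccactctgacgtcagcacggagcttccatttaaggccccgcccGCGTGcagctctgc
Hk2: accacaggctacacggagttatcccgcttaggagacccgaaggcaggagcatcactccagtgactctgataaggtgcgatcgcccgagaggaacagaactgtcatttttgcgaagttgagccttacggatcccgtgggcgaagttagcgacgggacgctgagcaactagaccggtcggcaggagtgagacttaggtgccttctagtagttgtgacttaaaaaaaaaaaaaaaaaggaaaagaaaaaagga
Slc16a3: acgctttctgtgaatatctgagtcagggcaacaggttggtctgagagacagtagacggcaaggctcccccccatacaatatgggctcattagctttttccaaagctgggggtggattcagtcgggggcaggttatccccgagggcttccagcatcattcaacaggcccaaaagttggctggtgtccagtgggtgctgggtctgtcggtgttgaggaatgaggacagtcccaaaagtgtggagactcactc

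Slc2a1 had 4 matches, 1 to ACGTG and 3 to GCGTG, and the nearest began 16 bases before the start. Ldha also had 4, but 3 to ACGTG, of which 2 are the strands of 1 palindrome, and 1 to GCGTG, the nearest beginning 14 bases before the start. Hif1a had 3, all to ACGTG, of which 2 are the strands of 1 palindrome, the nearest beginning 164 bases before the start. No match was found in the windows of Hk2 and Slc16a3, nor in those of Pkm and Pdk4, which says only that these letters are not in these 250 bases. A match to either core was found in 6 of the 10 members, counted by gene. The members have 11 windows, since Hk1 has 2, of which 1 held a match. Counted by window, 36.7% of the 33469 windows of the RefSeq table held a match.

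Genes of the same pathways outside the members were read from lists chosen with earlier results of these data known. Over all clustered cells, where the median log2 ratio of all genes was -0.13, the median of the list was -0.19 for other glycolytic enzymes, 0.02 for transporters and control genes, -0.06 for HIF targets, -0.28 for fatty acid genes and -0.10 for pentose phosphate genes. Among 14 other glycolytic enzymes, 0 of 107 pairs of a gene and a cluster were past 1.5-fold upwards and 18, or 16.8%, were past it downwards, close to the 14.4% of all genes. The downward pairs were mostly those of Tpi1, triosephosphate isomerase, in 7 of 9 clusters, and Pfkm, the muscle phosphofructokinase, in 6 of 8. Tpi1 went from 49.2 to 30 CPM over all cells, a ratio of 0.610 (0.587 to 0.634), and Pfkm from 30.6 to 15.8 CPM, 0.518 (0.491 to 0.546). In macrophages Gpi, the isomerase after hexokinase, had a ratio of 0.639 (0.562 to 0.725) and Pgam1, phosphoglycerate mutase, 0.611 (0.557 to 0.669). Such falls were common there, since 30.8% of all genes in macrophages were lower by at least 1.5-fold. Aldoa, Gapdh, Eno1 and Pgk1 were picked out after their values were seen because none passed 1.5-fold in any cluster with enough UMIs, with ratios from 0.908 to 1.15 for Aldoa, 0.805 to 1.20 for Gapdh, 0.885 to 1.09 for Eno1 and 0.721 to 0.945 for Pgk1. Of the transporters and control genes, 2 of 89 pairs were higher and 3 were lower, or 2.25% and 3.37%, among them Pdk2 in cluster 0 with 2.00 and 0.407 CPM. Slc2a3, a second glucose transporter, was listed with 0 UMIs in both libraries. The annotation behind the counts is not given in the sources used here, so whether the cells lack Slc2a3 RNA was not tested.

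The other HIF subunits and their oxygen sensors did not share one direction. Epas1, the second HIF subunit, was at 32.1 and 31.4 CPM in macrophages, a ratio of 0.977 (0.717 to 1.33) where Hif1a had 3.74, and it was past 1.5-fold in cluster 0 with 1.56 and in cluster 5 with 1.77. Arnt, the shared partner subunit, had 386 control and 203 LPS UMIs, a ratio of 0.629 (0.528 to 0.748). Egln3, a prolyl hydroxylase that HIF-1 itself induces, was past 1.5-fold upwards in 5 of 7 clusters, at most 2.48 (1.91 to 3.24) in cluster 2. Of the 41 pairs in this list of 8 genes, 17.1% were higher and 4.88% were lower, against 6.98% and 14.4% of all pairs. The 7 higher pairs were 5 of Egln3 and 2 of Epas1.

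Among HIF targets outside glycolysis 21 of 112 pairs were higher and 11 were lower, or 18.8% and 9.82%, against 6.98% and 14.4% of all pairs. A few genes made up most of the higher pairs, Adm with 9, P4ha2 with 6 and Vegfa with 4. Adm, which codes for the vessel-relaxing peptide adrenomedullin, was past 1.5-fold upwards in 9 of 9 clusters, with ratios from 1.64 in macrophages to 4.87 (4.28 to 5.57) in cluster 5, where it went from 63.5 to 310 CPM. Vegfa, the vascular growth factor, went from 6.15 to 18.6 CPM in cluster 0, 3.03 (2.74 to 3.35), and P4ha2, a collagen prolyl hydroxylase, was higher in 6 of 10 clusters. Ndrg1 was higher in macrophages, at 64.9 and 137 CPM and 2.12 (1.77 to 2.53). Car9, the carbonic anhydrase used as a marker of hypoxia, was lower in cluster 0, at 2.52 and 0.705 CPM and 0.280 (0.203 to 0.380), and Mxi1 was lower in 5 of 9 clusters. Bnip3, a mitophagy gene, was lower in macrophages with 0.598 (0.493 to 0.721), where 30.8% of all genes were lower by at least 1.5-fold.

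Among genes of fatty acid use 15 of 75 pairs were higher and 17 were lower, or 20% and 22.7%, against the same 6.98% and 14.4%. Most of the higher pairs were those of Angptl4, with 9, and Ppard, with 5. Angptl4, an inhibitor of lipoprotein lipase, was past 1.5-fold upwards in 9 of 9 clusters, from 1.60 in macrophages to 4.18 (3.74 to 4.69) in cluster 1. Ppard, a fatty acid receptor of the nucleus, was higher in 5 of 8. Cpt1a, which carries fatty acids towards the mitochondrion, was lower in 4 of 7 clusters and reached 0.228 (0.102 to 0.462) in cluster 5, and Plin2 of lipid droplets was lower in 5 of 7. In the pentose phosphate list 3 of 55 pairs were higher, all of Rpia, and 2 were lower, Tkt and Rpe in macrophages, or 5.45% and 3.64%, both below the shares of all pairs. The LPS response genes read as a check of the labels were higher in 38 of 38 pairs, with Il1b at 0.989 and 179 CPM over all cells.

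The genes most like each member were sought among 9976 genes by Pearson's r of log2(CPM + 1) over the 20 classes of 10 clusters in 2 libraries, which share library and depth, so r is a description only. Hif1a was most like Nfkb1 with r of 0.92, Nfkb2 with 0.91 and Icam1 with 0.90, which are 2 subunit genes of NF-κB and an adhesion molecule. Slc2a1 was most like Csrnp1 with 0.91 and Rapgef2 with 0.87, and Slc16a3, another member, was the third with 0.87. Pfkfb3, led by cluster 4, was most like Aup1 with 0.86. For Ldha the nearest were Ndufb3 with 0.82 and Uqcr10 with 0.81, both genes of the respiratory chain. Hk2 had no closer gene than Slc25a10 with 0.72.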

How the data were processed

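Both libraries were 10X Genomics 3′ libraries of Percoll-enriched cardiac cells. The authors deposited raw UMI counts per gene and cell and a cell table with clusters and cell type names, made with Cell Ranger 2.2.0 and Seurat 2.3.4 according to the submitters' processing notes. The genome build and annotation behind the counts are not given in the sources used here. The deposited counts were summed by cluster and library with pandas 2.3.3, scipy 1.17.1 and numpy 2.4.6 under Python 3.11.15. Clusters 0 to 9, with at least 50 cells in each library, were used, and 2 control and 8 LPS cells without a cluster were left out. No doublet caller was run, and an alternative dropped the top 8% of cells by UMIs in each cluster. With 1 library per group no test was made, and in its place a ratio of at least 1.5-fold with at least 50 UMIs was counted. Levels have exact Poisson, ratios exact conditional and shares exact Clopper-Pearson 95% intervals, which cover counting error only, and the floor for a count of 0 was 3 UMIs. Thinning to 3000 UMIs left out 0 control and 79 LPS cells. Up to 4 genes per pathway list and cluster, those past 1.5-fold with the largest ratio, and up to 3 genes most like each member could be named. Genes named outside that rule are marked as chosen after their values were seen, except Slc2a3, paralogs of the members and cell type markers. The members and lists were chosen with earlier results of these data known. The scripts were tested on simulated data. Promoter sequences came from RefSeq on GRCr8.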

Additional observations from a re-analysis of the deposited data

Results flagged for a closer look

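Of the members, 4 had clusters whose counting intervals lay above a ratio of 1 and others whose intervals lay below it. With 1 library per group, none of these differences between clusters was tested. For Hk2 the ratio of LPS to control was 4.11-fold higher in the endothelial cluster 5 than in the macrophages. For Slc16a3 it was 4.31-fold higher in the endothelial cluster 4 than in cluster 3, and for Pfkfb3 2.97-fold higher in cluster 3 than in the fibroblast cluster 0. For Ldha it was 1.44-fold higher in the fibroblast cluster 7 than in cluster 9, which held the fewest cells of the clusters used, 66 and 58.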

How the results depend on the processing

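With a 2-fold line in place of 1.5-fold the lower pairs of a member and a cluster went from 13 to 8. With no minimum of UMIs the higher pairs went from 16 to 25 and the lower from 13 to 21. The mean of the cells' own CPM gave 0.434 for Hk2 in macrophages in place of 0.56. Division by the median ratio of all genes gave 6.98 for Slc2a1 and 4.62 for Hif1a in macrophages, and took Hk2 there to 0.693, so that it no longer passed 1.5-fold, while Hk2 newly passed it upwards in clusters 0 (1.54), 1 (1.55) and 4 (1.52), the whole gain from 16 to 19 higher pairs. Leaving out cells with over 20% mitochondrial UMIs or under 500 genes removed 318 control and 323 LPS cells, and dropping the top 8% of cells by UMIs removed 918 and 1009. Of the 58 other ratios in single clusters, 58 moved by less than their counting interval under the mitochondrial filter, 58 with mitochondrial genes out of the denominator, 57 without the deepest cells, 56 with means over cells and 48 after division by the median ratio. None of the ratios moved by over 1.5-fold under these alternatives. Shares of cells with a UMI depend on the depth of thinning, and 104 of 122 moved beyond their intervals at 1500 UMIs per cell. No paired analysis was possible because there was 1 library per condition.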

Other observations

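Cluster 10, which the cell table leaves unnamed, held 16 control and 26 LPS cells, too few to be set beside clusters 0 to 9, and its UMIs are part of the values over all clustered cells. Ldha was at 1134 CPM in its control and 1549 CPM in its LPS cells, a ratio of 1.37 (1.12 to 1.68), and no cluster with more cells had a higher Ldha level with LPS. Hif1a had 15 and 27 UMIs there. Among the pentose phosphate genes, Rpia, which interconverts ribose and ribulose phosphates, went from 15.1 to 25.1 CPM in the fibroblast cluster 0, a ratio of 1.66 (1.54 to 1.78). Tkt, the transketolase that joins this path to glycolysis, went from 355 to 222 CPM in macrophages, 0.625 (0.563 to 0.693), where 30.8% of all genes were lower by at least 1.5-fold.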
